A study of Ovis aries with 60 samples.

Results

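S100A8, S100A9, CSF3R, ITGAM, PTPRC, LCP1, CORO1A and LAPTM5 are 8 genes associated with neutrophils or with leukocytes in general, and they were followed by their symbols through a gene count table of sperm RNA from 20 F2 rams. They are 8 of the 28525 genes in the table, and all 8 were among the 13577 genes kept for testing, which reached 15 counts in over 10 of the rams. The question addressed was whether S100A8 and S100A9 varied from ram to ram with the other 6 leukocyte genes or with KRT78 and KRT4, keratins of stratified squamous epithelium, and whether any of them differed by diet line.

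The animals were Polypay sheep. In the F0 generation 1 ram of each twin pair received the control diet with rumen-protected, encapsulated methionine from weaning to puberty (methionine line), and its twin received the control diet alone (control line). All F1 and F2 animals of both lines ate the control diet, so the F2 rams were grandsons that were never supplemented themselves. Semen was collected by electroejaculation, kept in RNAlater and treated with a somatic cell lysis buffer on ice before total RNA extraction, and each line was represented by 10 rams, 2 from each of 5 F0 sires. Library totals ran from 805831 to 13137757 counts in the control line (median 3029992) and from 1082165 to 10169107 in the methionine line (median 4587077.5). These totals are reads assigned to genes. The paper gives a much narrower range of reads sequenced per RNA library.

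S100A8 and S100A9 encode calcium-binding proteins that pair as calprotectin, which makes up much of the neutrophil cytosol and is also made by squamous epithelia. CSF3R is the receptor for granulocyte colony-stimulating factor and ITGAM the alpha chain of the CD11b/CD18 integrin, both used as neutrophil and myeloid markers. PTPRC (the CD45 phosphatase), LCP1 (the actin bundling protein L-plastin), CORO1A (the actin-binding coronin 1A) and LAPTM5 (a lysosomal membrane protein) are expressed across the leukocyte lineages. Ejaculated semen can hold leukocytes and epithelial cells of the reproductive tract and prepuce beside sperm.

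Rams are named by line, C for control and M for methionine, and a replicate number. Levels are given as CPM, counts scaled to a common library size after trimmed mean of M-values (TMM) normalization, which are not corrected for transcript length, so levels were compared between rams and not between genes. In these bulk samples fewer cells of a type and less RNA per cell cannot be told apart. Rams M7 and C10 stood apart from the other 18. Their summed level of 19 spermatid and sperm genes was the highest, at 10140 and 9998 CPM, where the other rams had a lower sum down to 210 CPM, and they ranked 19 and 20 of 20 for KRT78 plus KRT4 and for the 6 leukocyte genes. Ram C1 had the highest summed level of the 6 leukocyte genes, 14330 CPM, and ranked 19 of 20 for the sperm genes, at 366.7 CPM. Of the 25 listed sperm and spermatid genes, 22 had a row in the table and 19 passed the count minimum, among them the protamine gene PRM1 at 34.8 to 1530 CPM.

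The calprotectin genes covered a wide range. S100A8 ran from 18.7 CPM (ram C10) to 18460 CPM (ram C8) in the control line, with a median of 2136, and from 51.3 CPM (ram M7) to 6313 CPM (ram M6) in the methionine line, with a median of 3132. S100A9 ran from 32.7 to 37890 CPM in the control line (median 6639) and from 70.7 to 18680 CPM in the methionine line (median 7082), with the lowest and highest values in the same 4 rams as for S100A8. Rams C10 and M7 were far below the rest for both genes, and the ranges of the lines overlapped. The ratio of S100A9 to S100A8 counts stayed within 1.17 and 3.88 in all 20 libraries, a 3.31-fold range, while each gene spanned a range of 987-fold (S100A8) or 1159-fold (S100A9).

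The squamous keratins had a range of the same order. KRT78 ran from 29.6 CPM (ram C10) to 36820 CPM (ram C3) in the control line, median 8340, and from 62.2 CPM (ram M7) to 24430 CPM (ram M6) in the methionine line, median 7902. KRT4 ran from 10.4 CPM (ram C10) to 21140 CPM (ram C8) in the control line, median 2419, and from 31.9 CPM (ram M7) to 9403 CPM (ram M2) in the methionine line, median 3478. The lowest ram of each line was the same one for KRT78, KRT4, S100A8 and S100A9.

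Of CSF3R and ITGAM, the neutrophil and myeloid markers among the 8 genes, CSF3R varied more. It ran from 6.63 CPM (ram C10) to 10660 CPM (ram C1) in the control line, median 252.8, and from 8.49 CPM (ram M7) to 2751 CPM (ram M8) in the methionine line, median 405.4. ITGAM varied least of the 8, from 3.03 CPM (ram C3) to 31.0 CPM (ram C1) in the control line, median 12.4, and from 3.97 CPM (ram M4) to 25.9 CPM (ram M8) in the methionine line, median 10.6. Both genes peaked in rams C1 and M8, but CSF3R had a 1608-fold range over the 20 rams and ITGAM a 10.3-fold range. ITGAM rested on 15 to 77 counts per library.

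The pan-leukocyte genes also peaked in ram C1. PTPRC ran from 15.9 CPM (ram C10) to 1241 CPM (ram C1) in the control line, median 104.1, and from 19.4 CPM (ram M7) to 371.3 CPM (ram M6) in the methionine line, median 92.8. LAPTM5 ran from 3.08 CPM (ram C10) to 1363 CPM (ram C1) in the control line, median 91.4, and from 3.64 CPM (ram M7) to 311.8 CPM (ram M3) in the methionine line, median 60.9. The ram with the highest control value for S100A8 and S100A9, ram C8, was therefore not the one with the highest value for these genes. LCP1 ran from 2.61 to 550.1 CPM in the control line (median 20.5) and from 5.10 to 100.3 CPM in the methionine line (median 24.6). CORO1A ran from 6.99 to 480.4 CPM in the control line (median 19.3), where ram C8 was the lowest, and from 3.23 to 271.1 CPM in the methionine line (median 37.0).

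**Figure D1:**
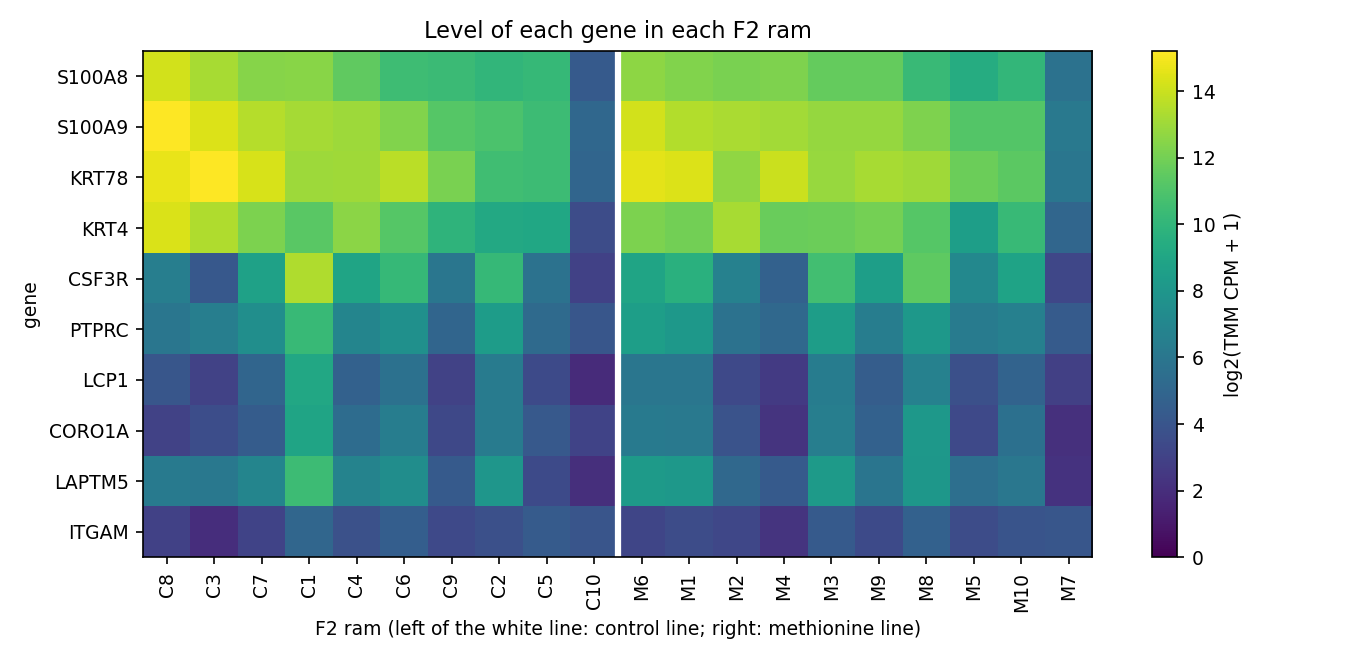
Level of the 8 leukocyte-associated genes and the keratins KRT78 and KRT4 in each F2 ram; the x axis gives rams, control line left and methionine line right of the white line, each ordered by S100A9, the y axis gives genes and the colour log2(TMM CPM + 1). S100A8, S100A9, KRT78 and KRT4 grow darker together from left to right within each line, while CSF3R, PTPRC, LCP1, CORO1A and LAPTM5 are brightest in ram C1 of the control line.

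S100A8 and S100A9 varied with each other and with the keratins. Correlations were computed on log2(TMM CPM + 1) over the 18 rams left when rams M7 and C10, parted from the rest by a gap of more than 2 log2 units, were set aside; for LCP1 and LAPTM5 ram C1 was parted in the same way, which left 17. S100A8 and S100A9 had r = 0.945 and rho = 0.957 (two-sided permutation test, p = 1e-05 for both, the smallest that 100000 resamples can give; adjusted p = 3.21e-05 for r and 3.75e-05 for rho over 45 gene pairs). S100A9 had r = 0.919 with KRT78 (rho = 0.876) and r = 0.931 with KRT4 (rho = 0.891), each at the same smallest p. S100A8 had r = 0.816 with KRT78 (rho = 0.837) and r = 0.889 with KRT4 (rho = 0.827), adjusted p = 3.21e-05 for r and 0.000129 for rho. Without the 2 rams farthest from the median of the keratin in each pair, these 4 keratin correlations ranged from 0.809 to 0.922.

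Over the same rams and on the TMM scale no such relation was detected with the leukocyte genes. With CSF3R, PTPRC, LCP1, CORO1A and LAPTM5, r lay between -0.161 (S100A8 and LCP1) and 0.307 (S100A9 and LAPTM5), and the smallest adjusted p of these 10 pairs was 0.396 for r and 0.489 for rho. ITGAM ran against both: r was -0.508 with S100A8 (permutation p = 0.0307, adjusted p = 0.0726) and -0.478 with S100A9 (p = 0.0443, adjusted p = 0.0948), and rho was -0.542 (adjusted p = 0.0459) and -0.612 (adjusted p = 0.0207). Leaving out each ram in turn kept the 4 keratin correlations within 0.791 and 0.943, and the leukocyte correlations within -0.67 and 0.439. Over all 20 rams, with M7 and C10 included, rho was higher for some leukocyte genes: 0.492 and 0.495 of LAPTM5 with S100A9 and S100A8, and 0.385 and 0.392 of PTPRC, against 0.91 of KRT78 and 0.92 of KRT4 with S100A9. The difference between the keratin and the leukocyte correlations was not itself tested.

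Rams share sires, so the correlations were also taken over the means of 10 F0 sires. With rams M7 and C10 set aside, rams M6 and C1 each stood alone for their sire. The 4 keratin r values were then 0.755 to 0.925 (permutation test, largest adjusted p = 0.0246), but by rho S100A9 with KRT4 alone passed (0.83, adjusted p = 0.0415), and the other 3 were 0.648 to 0.733 (adjusted p = 0.145, 0.106 and 0.1). Of the leukocyte genes S100A9 had r = 0.552 with LAPTM5 over 9 sires (permutation test, adjusted p = 0.264) and S100A8 had r = 0.375 with PTPRC over 10 (adjusted p = 0.522).

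Inside each line 9 rams remained. S100A9 had r = 0.925 with KRT78 in the control line and 0.906 in the methionine line (exact permutation p = 0.000609 and 0.00124), and r = 0.128 and 0.277 with PTPRC (p = 0.746 and 0.459). S100A8 had r = 0.823 and 0.837 with KRT78 (exact permutation p = 0.00704 and 0.00575), and 0.099 and 0.097 with PTPRC (p = 0.801 and 0.807). By rho 2 keratin pairs missed the threshold within the methionine line, S100A9 with KRT78 at 0.783 (exact permutation test, adjusted p = 0.0554) and S100A8 with KRT4 at 0.733 (adjusted p = 0.0934). Against the mean log2 level of KRT78 and KRT4, r was 0.971 for S100A9 and 0.897 for S100A8 over 18 rams. Against the mean of the 6 leukocyte genes it was 0.02 and -0.062, and with the keratin mean held constant the partial r was 0.271 and -0.046.

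**Figure D2:**
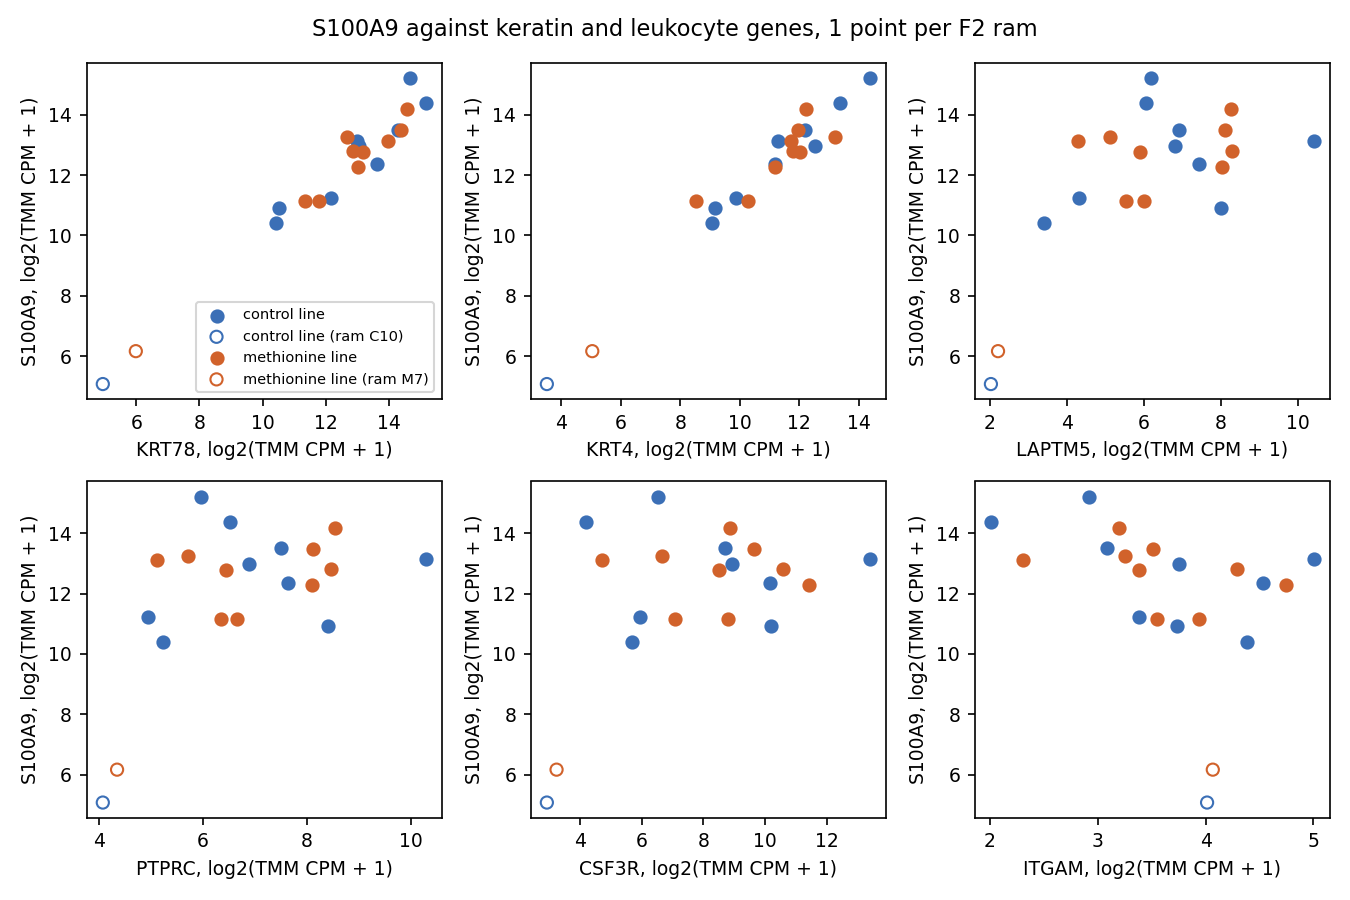
S100A9 (y axis) against KRT78, KRT4, LAPTM5, PTPRC, CSF3R and ITGAM (x axes), all as log2(TMM CPM + 1), 1 point per F2 ram, coloured by diet line, with open circles for rams M7 and C10. The filled points line up for KRT78 (r = 0.919) and KRT4 (r = 0.931) and scatter for LAPTM5 (r = 0.307, computed over 17 rams without ram C1), PTPRC (r = 0.176) and CSF3R (r = -0.068).

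Scaling bears on these values. S100A9 level and library total, the reads assigned to genes, had rho = 0.82 over the 20 rams, S100A8 0.773, KRT78 0.731 and KRT4 0.669. This rho was 0.11 for PTPRC, -0.14 for CSF3R and -0.817 for ITGAM. The part of the library total in the correlations was not tested. On CPM without TMM scaling, r of S100A8 with KRT78 fell to 0.358 (permutation test, adjusted p = 0.26), while r of the other 3 keratin pairs was 0.698 to 0.864 (largest adjusted p = 0.00408). By rho both S100A8 pairs missed the threshold on that scale, at 0.354 with KRT78 (adjusted p = 0.251) and 0.542 with KRT4 (adjusted p = 0.0583). With every gene scaled instead by the summed counts of the sperm genes, a divisor shared by both genes of a pair and chosen after seeing the data, the 4 keratin correlations were 0.945 to 0.98 and all 12 leukocyte r values were positive with adjusted permutation p of 0.05 or less. By rho the pairs S100A8 and CSF3R (0.381, adjusted p = 0.125), S100A9 and CSF3R (0.422, adjusted p = 0.0895) and S100A8 and CORO1A (0.476, adjusted p = 0.0544) did not pass. Under TMM too, both genes of a pair share the library's scaling factor. The ratio of the counts of 2 genes in a library is free of scaling. Over the 20 rams the SD of the log2 count ratio of S100A9 was 0.543 to KRT78 and 0.571 to KRT4, against 1.90 to LAPTM5, 2.12 to PTPRC, 2.40 to LCP1, 2.64 to CORO1A, 2.75 to CSF3R and 2.94 to ITGAM. For S100A8 it was 0.847 and 0.718 to the keratins, and 1.97 (LAPTM5) to 2.83 (ITGAM) to the leukocyte genes.

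In plain ratios, S100A9 counts per KRT78 count ran from 0.41 (ram C6) to 1.48 (ram M2), and S100A9 counts per PTPRC count from 2.06 (ram C10) to 620.9 (ram C8). S100A9 counts per CSF3R count ran from 0.850 (ram C1) to 1215 (ram C3). Ranked by this SD among the other 13576 genes, from the most constant ratio, KRT78 was 33rd and KRT4 42nd for S100A9, S100A8 was 9th, and LAPTM5, the nearest of the other 6 of the 8 genes, was at rank 2524. The median SD of all genes to S100A9 was 2.62.

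**Figure D3:**
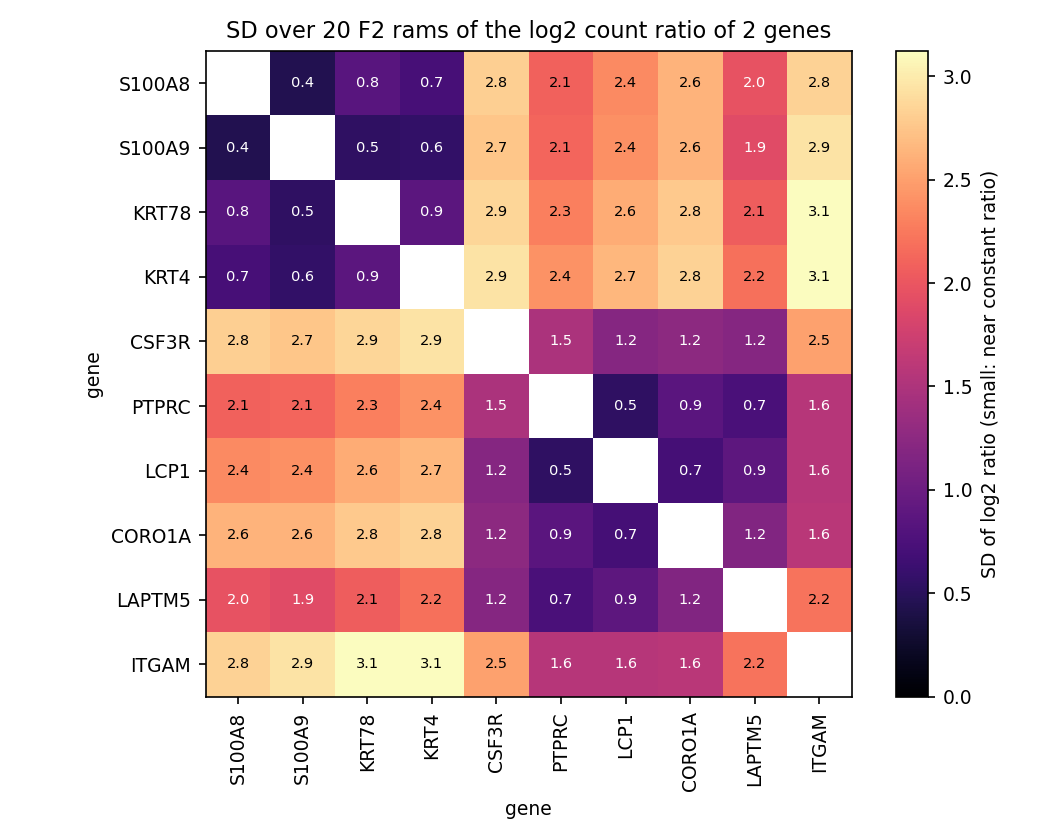
SD over the 20 F2 rams of the log2 count ratio of each pair among the 8 genes, KRT78 and KRT4; both axes list genes and the colour and number give the SD in log2 units. S100A8, S100A9, KRT78 and KRT4 form a dark block (0.448 to 0.877), CSF3R, PTPRC, LCP1, CORO1A and LAPTM5 form another (0.542 to 1.49), and ITGAM is at 1.57 or more to every other gene.

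CSF3R, PTPRC, LCP1, CORO1A and LAPTM5 varied together. Their 10 pairwise r values over 19 or 20 rams lay between 0.819 (CORO1A and LAPTM5) and 0.973 (PTPRC and LAPTM5), with an adjusted permutation p for r of 0.00012 or less in each pair. PTPRC and LCP1 kept the most constant ratio (SD of log2 ratio 0.542). The count ratio of CSF3R to PTPRC, a neutrophil receptor over the common leukocyte phosphatase, was less even, from 0.195 (ram C3) to 10.1 (ram M8).

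Over the 19 or 20 rams used for these pairs, ITGAM stood outside this group. It had r = 0.62 with CORO1A (permutation p = 0.00341, adjusted p = 0.00903) and r = 0.525 with CSF3R (p = 0.0172, adjusted p = 0.043; rho = 0.463, adjusted p = 0.0839). Without the 2 rams farthest from the CORO1A median, C1 and M8, r with CORO1A was 0.409. Without the 2 rams farthest from the ITGAM median, C3 and C1, r with CSF3R was 0.303. Each value therefore rested in part on the rams left out for it. Both also held rams M7 and C10, which the correlations of S100A8 and S100A9 set aside. By rank correlation with ITGAM among 13576 genes, CSF3R moved from rank 2504 over 20 rams to 539 without M7 and C10. CORO1A moved from 1722 to 355, LCP1 from 2949 to 1068, PTPRC from 4971 to 2959 and LAPTM5 from 5464 to 3707. ITGAM was therefore nearer to these genes over the other rams. Over 19 or 20 rams ITGAM had r = 0.339 with PTPRC, 0.399 with LCP1 and 0.052 with LAPTM5 (permutation test, smallest adjusted p = 0.179). The SD of the log2 count ratio of ITGAM to CSF3R was 2.51. Ranked from the most constant ratio to CSF3R, ITGAM was at rank 1591 of 13576 genes, whose median SD was 2.98. Ranked in the same way to ITGAM, CSF3R was at rank 13092, and the median SD was 1.23. ITGAM had the lowest median count of the 8 genes, 39, and its level had rho = -0.817 with the library total. The part of the library total in these values was not tested.

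Other genes of the same kinds were examined from lists of marker genes. Across all tested genes, 33.0% had rho above 0.5 with S100A9 over the 20 rams, 9.58% with CSF3R and 12.3% with PTPRC, which is the background for the counts that follow. S100A12, FPR1, FPR2, MNDA and CEACAM8 of the neutrophil list had no row under those symbols. Of 16 further neutrophil genes that passed the count minimum, 1 had rho above 0.5 with S100A9, 14 with CSF3R and 13 with PTPRC (median rho 0.144, 0.882 and 0.832). The exception for S100A9 was CYBB, the catalytic chain of the phagocyte oxidase (rho = 0.55). FCGR3A, a low-affinity IgG receptor, came next at 0.408, and the lowest were MPO, the myeloperoxidase of neutrophil granules, at -0.824 and MMP9, gelatinase B, at -0.317.

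Among 26 further pan-leukocyte genes, 3 had rho above 0.5 with S100A9, 22 with CSF3R and 23 with PTPRC. The 2 highest with S100A9 were ARHGDIB (0.899) and ARHGAP30 (0.857), and the lowest were the tetraspanin CD37 (-0.52) and the myosin MYO1F (-0.502). Lymphocyte genes gave 3 of 9 with S100A9, 0 with CSF3R and 2 with PTPRC. They were low in every library, with a summed level of 34.4 to 217.5 CPM over 9 genes. CD247, the T cell receptor zeta chain, and CD2 were the highest with S100A9 (0.677 and 0.559), and the kinase LCK (-0.716) and CD5 (-0.392) the lowest.

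Of 6 macrophage genes, 2 passed 0.5 with S100A9 and 3 each with CSF3R and PTPRC. CD68, a lysosomal glycoprotein, followed S100A9 (0.907) and had rho of 0.14 with CSF3R, and CD86, a costimulatory ligand, had 0.552 and 0.722. The mannose receptor MRC1 (-0.719) and the complement gene C1QC (0.104) were the lowest with S100A9. SLC4A1, the only one of 6 erythrocyte genes to pass the count minimum, had rho = -0.75 with S100A9.

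Of 24 further squamous genes, 20 had rho above 0.5 with S100A9 and 0 with CSF3R or PTPRC (median rho 0.835, 0.105 and 0.226). The highest were SCEL, sciellin of the cornified envelope (0.916), and the protease inhibitor A2ML1 (0.908), and the lowest TGM3, an epidermal transglutaminase (-0.242), and the ammonia transporter RHCG (0.248). All 7 other S100 genes that passed the count minimum had rho above 0.5 with S100A9 and 0 did with CSF3R, led by S100A11 (0.946) and S100A16 (0.902) and ending with S100A5 (0.824) and S100A6 (0.681). S100A2, S100A14 and S100A16, which are 3 of these 7, stand in the squamous list too, so the counts of these lists are not independent. None of the 19 spermatid and sperm genes was above 0.5 (median rho -0.747), and they ran from FSIP2 (-0.908) and AKAP4 (-0.881), both of the fibrous sheath, to HSPA1L (-0.498) and the phosphoglycerate kinase PGK2 (-0.26).

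By rank correlation over the 20 rams, S100A8 was most like LOC101115640 (rho = 0.977), GABARAPL2 (0.971), LOC101118024 (0.97), S100A9 and LOC105609544 (0.968 each), LOC101103771 (0.967), DYNLRB1 (0.964), EAPP (0.962) and LOC101121538 (0.961). S100A9 was most like DYNLRB1 (0.991), LOC101121538 (0.983), LOC101115640 (0.979), SDC2 (0.976), TPD52L2 (0.973), MYL6 (0.971), CAST and LOC101116622 (0.97 each), ID2 and S100A8 (0.968 each). DYNLRB1 is a dynein light chain, SDC2 a syndecan, MYL6 a myosin light chain, CAST the calpain inhibitor calpastatin and ID2 an inhibitor of helix-loop-helix factors, while GABARAPL2 acts in autophagy. In these rankings of 13576 genes for S100A9, KRT4 stood at 342 and KRT78 at 487, and the other 6 of the 8 genes between 4529 (LAPTM5) and 9907 (ITGAM).

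In the RefSeq gene table of a later sheep assembly, LOC101103771 is the only gene annotated between S100A8 and S100A9. It ran from 30.8 CPM (ram C10) to 52160 CPM (ram C8) in the control line, median 5427, and from 62.6 CPM (ram M7) to 18750 CPM (ram M6) in the methionine line, median 6355. The same rams were lowest and highest as for S100A8 and S100A9. The SD of its log2 count ratio was 0.433 to S100A8 and 0.404 to S100A9, against 2.98 to CSF3R. What LOC101103771 encodes was not examined here.

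By diet line no difference was detected in any of the 8 genes. In the whole-table fit, edgeR's quasi-likelihood test called 0 of 13577 genes at an adjusted p of 0.05 or less, a background of 0%. An unadjusted p under 0.05 was found for 104 genes (0.766%). This is far below the share of 0.05 that evenly spread p-values would give, and the reason was not tested. None of the 8 was among those 104, and the adjusted p of each was 1. DESeq2 called 0 genes too and had 174 with an unadjusted p under 0.05. The values of the 2 lines overlapped for all 8, and 0% of the tested genes had lines that did not overlap.

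The fitted log2 fold changes (methionine over control, ± SE) were -0.64 ± 0.83 for S100A8, -0.45 ± 0.86 for S100A9, -1.09 ± 1.08 for CSF3R, -0.15 ± 0.37 for ITGAM, -0.49 ± 0.71 for PTPRC, -1.01 ± 0.80 for LCP1, -0.32 ± 0.82 for CORO1A and -0.66 ± 0.84 for LAPTM5. The smallest unadjusted p in that fit was 0.217, for LCP1. The median of the 8 was -0.57 and that of all tested genes -0.05. The 95% intervals were wide: they held a methionine to control ratio of 0.197 to 2.09 for S100A8, 0.215 to 2.51 for S100A9, 0.101 to 2.18 for CSF3R and 0.532 to 1.52 for ITGAM.

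For the leukocyte genes the sign of the fitted value rested on ram C1. Without it the log2 fold changes were 0.80 for CSF3R, 0.06 for ITGAM, 0.47 for PTPRC, 0.61 for LCP1, 0.98 for CORO1A and 0.59 for LAPTM5, still with adjusted p of 1 in the same edgeR test. For S100A9 it rested on ram C8, without which the value was 0.10. Mean log2(TMM CPM + 1) was 11.92 ± 2.84 (SD, n = 10) for S100A9 in the control line and 12.04 ± 2.28 in the methionine line, and 7.67 ± 3.17 and 7.95 ± 2.56 for CSF3R. A two-sided permutation test of these means, with rams taken as independent, gave p = 0.914 for S100A9 and 0.823 for CSF3R. The largest difference in mean log2 level among the 8 genes was 0.29, for CSF3R.

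Of the 8 genes, S100A9 alone had a smaller median difference between the 2 rams of a sire than between rams in general, and the other 7 had a larger one, with no test. The median absolute difference within sires was 1.52 log2 units for S100A9 (1.85 over all pairs of rams) and 1.97 for S100A8 (1.87). It was 4.20 for CSF3R (2.89), 0.928 for ITGAM (0.766), 2.25 for PTPRC (1.68), 2.55 for LCP1 (1.69), 2.37 for CORO1A (1.95) and 2.87 for LAPTM5 (2.14). Rams C1 and C10, which held rank 1 and rank 20 for the summed leukocyte genes, were both grandsons of the same F0 sire of the control line.

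**Figure D4:**
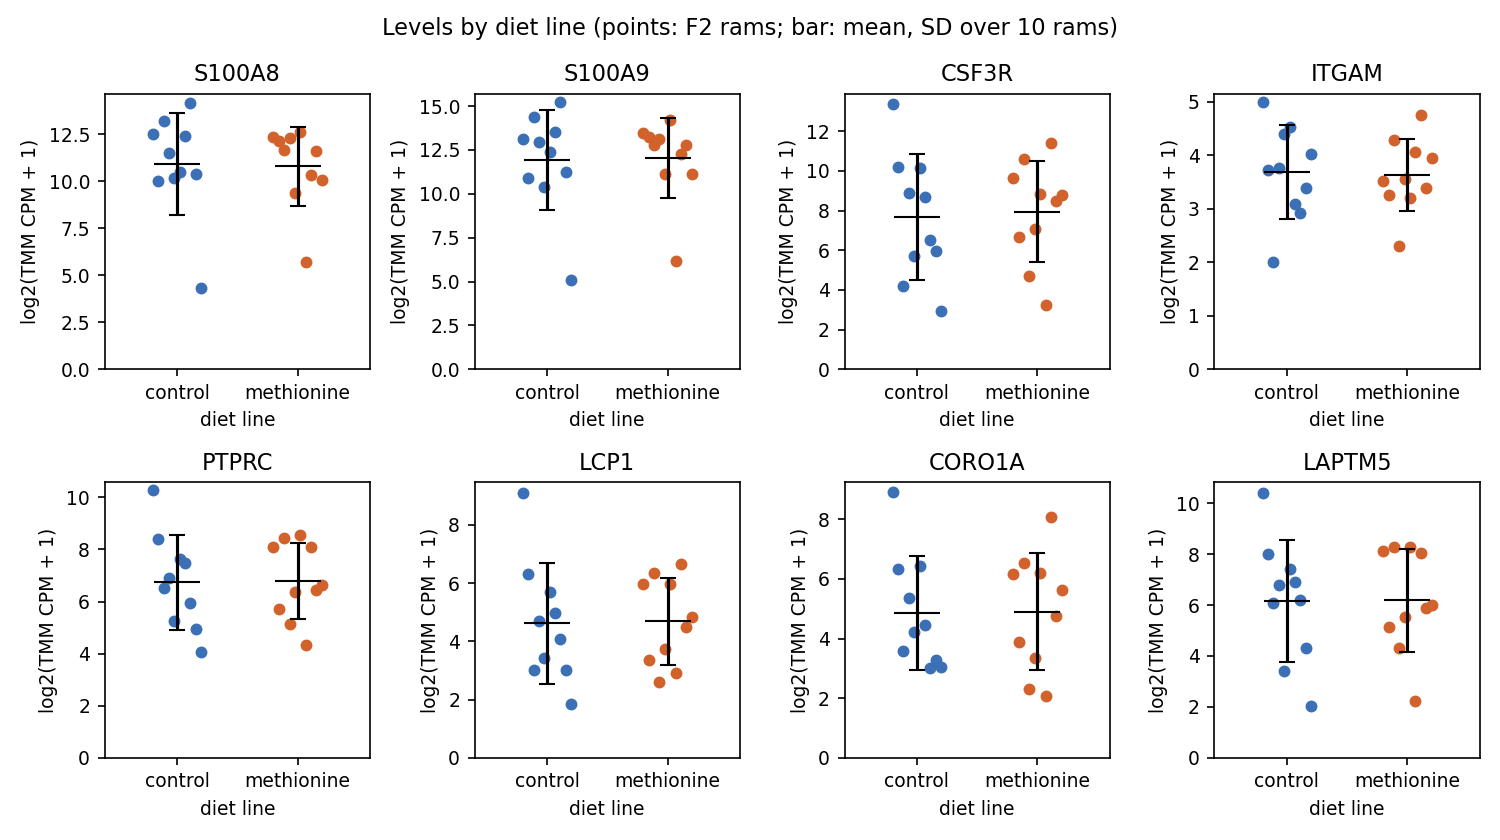
Levels of the 8 genes by diet line; the y axes give log2(TMM CPM + 1), each point is an F2 ram, and the bar and whiskers give mean and SD over 10 rams. The lines overlap in every gene, rams C10 and M7 lie far below the rest for S100A8 and S100A9, and the highest control point of CSF3R, PTPRC, LCP1, CORO1A, LAPTM5 and ITGAM is ram C1.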

How the data were processed

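Counts per gene were deposited for the 20 F2 RNA samples. Per the methods, the authors trimmed single-end NovaSeq reads with Trimmomatic and counted reads per gene with STAR on the Oar_rambouillet_v1.0 assembly. The annotation and the strand setting are not given in the sources used here. Rams were grouped by the diet labels. Sires were taken from the titles of the DNA samples and matched to the RNA samples by ram number. The members and gene lists were chosen with earlier results of these data known. Genes that reached 15 counts in over 10 of the rams were scaled by TMM (factors 0.361 to 2.54) and tested between lines in edgeR 4.0.16 (quasi-likelihood test, Benjamini-Hochberg). The paper describes the same count minimum but reports more genes passing it than the 13577 found here, and the reason is not known. Pearson and Spearman permutation tests (100000 resamples, exact where fewer than 10 rams remained) ran on log2(TMM CPM + 1), and count ratios used a pseudocount of 0.5. Alternatives were RLE and upper-quartile scaling, DESeq2 1.42.0, limma-voom 3.58.1, no filter, sums per sire, a block and leaving out each ram. On simulated data the fit recovered 90 of 200 genes changed 4-fold between 10 and 10 rams, with 4 false calls. Named list genes are the 2 highest and 2 lowest by rho with S100A9 in each list, and the 10 genes most like S100A8 and S100A9 are given, except 1 that is not reported here. Nothing in the labels says how RNA extraction or sequencing was batched. Methylation at these genes and their sequences were not analysed here, because the assembly of the files was not used here. RefSeq symbols (ARS-UI_Ramb_v3.0) served only for names and neighbours, and all 8 genes matched.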

Additional observations from a re-analysis of the deposited data

Results flagged for a closer look

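In 7 of the 20 gene-by-line groups tested, the lowest ram lay farther from its nearest neighbour than Dixon's 95% criterion allows for 10 rams. The 20 groups are not independent, because they share rams and several genes varied together, so this count was not set against chance. All 7 are ram C10 of the control line or ram M7 of the methionine line, on log2(TMM CPM + 1). The gap as a share of the line's whole log2 range was, for ram C10, 0.577 for S100A8 (18.7 against 1022 CPM in the next ram), 0.526 for S100A9 (32.7 against 1355), 0.538 for KRT78 (29.6 against 1390) and 0.512 for KRT4 (10.4 against 538). For ram M7 this share was 0.533 for S100A8 (51.3 against 672.9 CPM), 0.621 for S100A9 (70.7 against 2262) and 0.625 for KRT78 (62.2 against 2615). These rams had the highest summed level of the sperm genes, 10140 CPM in ram M7 and 9998 CPM in ram C10. The diet fit without both rams called 0 of 12785 genes (edgeR, 116 at an unadjusted p under 0.05), with log2 fold changes of -0.62 for S100A8 and -0.43 for S100A9, and was chosen after seeing the data.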

How the results depend on the processing

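No setting called a gene by diet: edgeR with RLE scaling had 124 genes at an unadjusted p under 0.05, upper-quartile scaling 85, no filter 715 of 27658, sums per sire 140, limma-voom 40 and DESeq2 174, against 104. The replicate block of consecutive F0 sire numbers, an inferred pairing, had 50 such genes and 0 calls; the correlations of deviations of its 5 pairs were 0.163, 0.099, -0.109, -0.243 and 0.486, so rams of consecutive sire numbers did not deviate together in every pair. This does not bear on whether those F0 sires were twins. The sign of the log2 fold changes depended on the setting, all at adjusted p of 1 in the fits and at p of 0.823 or more in the permutation test of means. DESeq2 gave 0.76 for CSF3R, 0.54 for LCP1 and 0.92 for CORO1A, near the edgeR values without ram C1 (0.80, 0.61 and 0.98). With RLE scaling edgeR gave -1.29, -1.22 and -0.50 for these genes, and why DESeq2 differed was not tested. limma-voom gave 0.0096 for S100A9, 0.26 for CSF3R, 0.0057 for PTPRC, 0.0441 for LCP1, 0.0682 for KRT78 and 0.0663 for KRT4. The block gave 0.23 for CSF3R, 0.02 for LCP1, 0.44 for CORO1A, 0.15 for KRT78 and 0.0376 for KRT4. Differences in mean log2 level were 0.12 for S100A9, 0.29 for CSF3R, 0.0406 for PTPRC, 0.0709 for LCP1, 0.0337 for CORO1A, 0.0217 for LAPTM5, 0.19 for KRT78 and 0.14 for KRT4. Leaving out each ram gave -0.82 to -0.07 for S100A8, -0.72 to 0.10 for S100A9, -1.76 to 0.80 for CSF3R, -0.33 to 0.0613 for ITGAM, -0.71 to 0.47 for PTPRC, -1.34 to 0.61 for LCP1, -1.05 to 0.98 for CORO1A, -0.88 to 0.59 for LAPTM5, -0.51 to 0.12 for KRT78 (positive without ram C3) and -0.88 to 0.0906 for KRT4 (positive without ram C8), with 0 calls each time.

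Of the correlations of S100A8 and S100A9 with leukocyte genes, those that changed sign without TMM scaling were -0.314 and -0.258 with PTPRC and -0.361 and -0.068 with LAPTM5. Without the 2 rams farthest from the median of the leukocyte gene in each pair, S100A8 had -0.108 with PTPRC and -0.014 with LAPTM5, and S100A9 had 0.023 with CSF3R and 0.064 with LCP1. Within the methionine line S100A9 had 0.159 with LCP1 and 0.096 with CORO1A. On sire means S100A8 had 0.18 with CSF3R and 0.236 with CORO1A, and S100A9 had 0.051 with CSF3R, 0.046 with LCP1 and 0.101 with CORO1A. None of these sign changes passed an adjusted p of 0.05. The negative r with ITGAM passed in 2 settings, S100A9 at -0.637 without TMM scaling (permutation test, adjusted p = 0.0131) and S100A8 at -0.614 without the 2 farthest rams (adjusted p = 0.0295). One scaling, chosen after seeing the data, changed the answer for the leukocyte genes: with every gene divided by the summed sperm-list counts, 12 of 12 leukocyte pairs had a positive r at an adjusted p of 0.05 or less, against 0, and 9 of 12 passed by rho. S100A8 then had 0.485 with CSF3R, 0.653 with ITGAM, 0.623 with LCP1 and 0.54 with CORO1A, and S100A9 had 0.521, 0.659, 0.675 and 0.57. By construction both genes of a pair share that divisor, as they also share the library's scaling factor under TMM. The 4 keratin correlations were 0.945 to 0.98 under it.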
